A study of Macaca fuscata with 12 samples.

Results

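Collagens, small proteoglycans and related genes were read on 12 Affymetrix rhesus macaque arrays of cortex from Japanese macaques (Macaca fuscata). Fibroblasts of the meninges make some of them, and others are collagens of neurons, cartilage or skin. The genes were taken by symbol, as every probe set with 1 gene symbol for a collagen chain, for lumican, asporin, decorin, biglycan, fibromodulin, osteoglycin or PRELP, for a fibulin, for fibronectin or for an IGF-binding protein (IGFBP). They came to 93 of the 52766 probe sets and to 52 of the 14132 genes: 10 fibrillar collagens, 6 basement membrane collagens, 19 other collagens, 6 small leucine-rich proteoglycans, 4 fibulins and fibronectin, and 7 IGFBP genes. PRELP, COL4A1 and COL4A2 were not analysed here.

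The study set monkeys trained in tool use against control monkeys, in 2 dissections of the left hemisphere. SII is the cortex around the lateral sulcus with the secondary somatosensory area, and IPS is the cortex around the intraparietal sulcus. Each of the 4 groups held 3 arrays, from 8 animals in all. SII trained held a male of 5 years 7 months, a female of 3 years 10 months and a male of 5 years 1 month. SII control held a female of 4 years 6 months and males of 5 years 4 months and 5 years 10 months. IPS trained held males of 5 years 7 months, 6 years and 5 years 1 month, and IPS control held males of 5 years 4 months, 5 years 10 months and 3 years 9 months. In 4 animals both regions were hybridised: IPS trained 1 and SII trained 1, IPS trained 3 and SII trained 3, IPS control 1 and SII control 2, and IPS control 2 and SII control 3. The labels give neither the length of training nor the handling of the control animals.

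The meninges are sheets of fibroblasts, vessels and extracellular matrix that cover the cortex and dip into its sulci. Their fibroblasts make fibrillar collagens, which bundle into fibres, and small leucine-rich proteoglycans, which sit on those fibres and set their thickness and spacing. The pia and the walls of vessels also hold basement membrane, a thinner sheet built on collagen IV and laminin. Cortical neurons and glia make little of the fibrillar matrix, so its transcripts in a block of sulcal cortex are a common reading of how much pial and vessel wall tissue the block held. In such bulk RNA, fewer fibroblasts and less matrix RNA per fibroblast cannot be told apart.

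Every value below is on a log2 scale and relative: the authors' values of each probe set have a median of 0 over the 12 arrays, so a value of 1 is taken as a doubling over that median (the base of the logarithm is not stated and was read from the range of the values). A gene's value is the mean of its probe sets. Levels cannot be compared between genes, and only a rough class of signal could be read back. Among the 93 probe sets, 2 were in the high class (of COL5A2 and FN1), 56 in the middle class, 26 in the low class and 9 on the detection floor in at least 2 arrays. Over the 24956 probe sets of all genes, 3007 were high, 12439 middle, 6724 low and 2786 on the floor. Markers of cortical cells were more often in the high class, with 5 of 14 probe sets of the cortical neuron list and 6 of 13 of the astrocyte list. A list of meninges markers outside the set had 8 of 54 probe sets there.

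The arrays themselves differed. Spiked hybridisation controls were raised on SII trained 2, SII control 1 and IPS trained 3, with medians of 0.54, 0.45 and 0.46, against -0.13 to 0.08 on the other 9. The 3′ minus 5′ value of the actin control probe sets, a sign of RNA length, ran from -1.87 on SII control 2 to 1.37 on IPS trained 3. The detection floor, relative to its mean over the arrays, ran from -0.71 on SII control 2 to 0.96 on SII trained 2. It lay at 0.66 on SII control 1. SII trained 2 and SII control 1 were also the only arrays from females, so sex and a high floor cannot be told apart on them. Red blood cell genes had a median of 1.24 on SII trained 2. Of their 7 probe sets, 4 were in the low class and 3 on the floor. These values move with single arrays, and their part in the results was not tested.

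**Figure D1:**
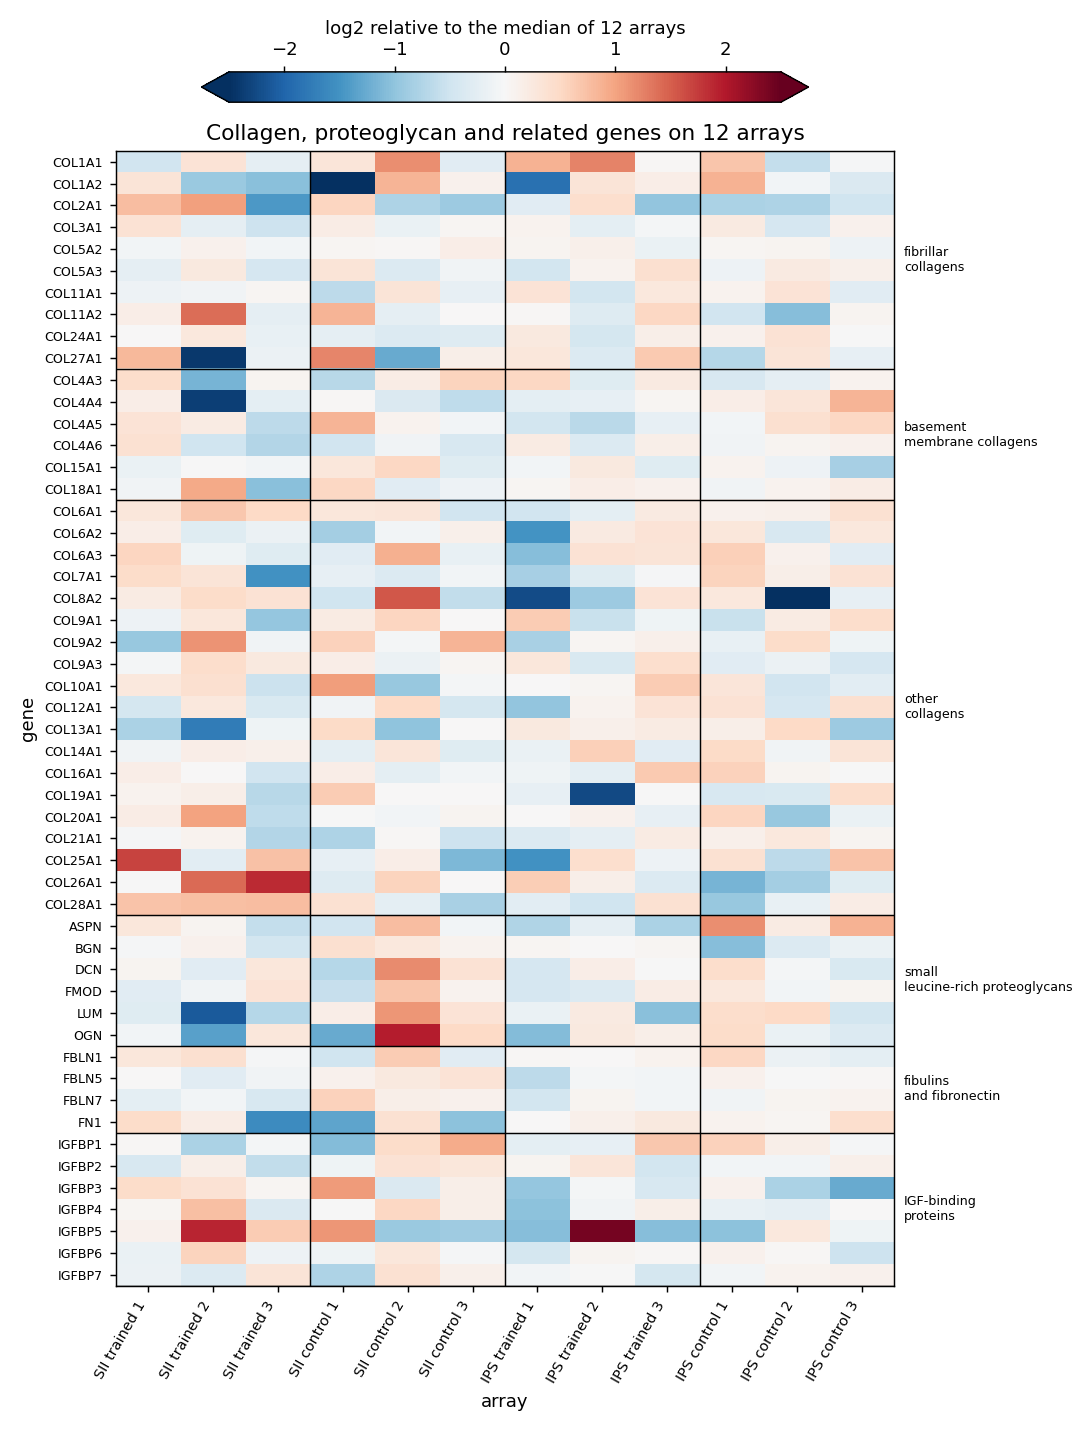
Each row is a gene, each column an array, and the colour is the log2 value relative to the median of the 12 arrays, with colours saturated beyond 2.5 in either direction. The rows are grouped by role. The darkest cells sit on single arrays, such as COL1A2 at -2.67 on SII control 1 and COL8A2 at -2.73 on IPS control 2, and no group of 3 arrays stands out as a block.

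Arrays of 1 group differed widely in the matrix genes. The within-group SD of the 52 genes had a median of 0.54, and the spread from the highest to the lowest of the 4 group means had a median of 0.52. Over all 14132 genes the same figures were 0.40 and 0.48. The noisiest members were IGFBP5 with a within-group SD of 1.29, COL1A2 with 1.22, COL8A2 with 1.20, COL27A1 with 1.10 and OGN with 1.01. COL5A2, a chain of the collagen V that starts fibril assembly, was the steadiest, with a within-group SD of 0.11 and values between -0.16 and 0.17.

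None of the 52 genes passed limma's moderated test at a 5% false discovery rate in any comparison, and nor did any of the 93 probe sets. In SII trained minus SII control, 23 genes were higher and 29 lower, with a median of -0.07, where 54.5% of all genes were higher. At an unadjusted p under 0.05, 1 gene was higher (COL28A1) and 2 lower (LUM and FBLN7), where 2.24% of all genes were higher and 1.25% lower. In IPS trained minus IPS control, 20 genes were higher and 32 lower, with a median of -0.06, where 54.6% of all genes were higher. At an unadjusted p under 0.05, 1 was higher (BGN) and 2 lower (ASPN and COL4A5), where 1.65% of all genes were higher and 1.22% lower. Both medians turned with 1 array: the median was 0.13 in SII without SII trained 3 and 0.06 in IPS without IPS trained 1. Counts of 1 or 2 in 52 are too few to set apart from those shares. By probe set, 5 of 93 were at an unadjusted p under 0.05 in SII (1 higher and 4 lower) and 3 of 93 in IPS (2 higher and 1 lower), where the background was 2.53% higher and 1.35% lower in SII and 1.81% higher and 1.46% lower in IPS. A plain 2-sample test gave 6 probe sets in SII and 3 in IPS at that level and 0 past the 5% false discovery rate. Over all genes and all probe sets, limma passed 0 in either training comparison.

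The 3 trained values did not overlap the 3 control values in 2 genes that were higher (COL24A1 and COL28A1) and 3 that were lower (LUM, FBLN5 and FBLN7) in SII, where the background was 4.23% higher and 2.31% lower. In IPS this held for 1 higher gene (BGN) and 5 lower genes (ASPN, COL4A4, COL4A5, COL7A1 and FBLN5), where the background was 5.22% higher and 3.15% lower. FBLN5, which helps to assemble elastic fibres, was the only member in both lists. Its values were 0.00, -0.29 and -0.08 in SII trained, against 0.10, 0.25 and 0.35 in SII control. They were -0.65, -0.05 and -0.07 in IPS trained, against 0.11, -0.00 and 0.03 in IPS control. The changes were -0.35 ± 0.20 in SII and -0.30 ± 0.20 in IPS (SE, n = 3 arrays each), and the average over both regions was -0.33 ± 0.15 with an unadjusted p of 0.0473 and an adjusted p of 1.00 by limma. Without IPS trained 1 its IPS change was -0.11.

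**Figure D2:**
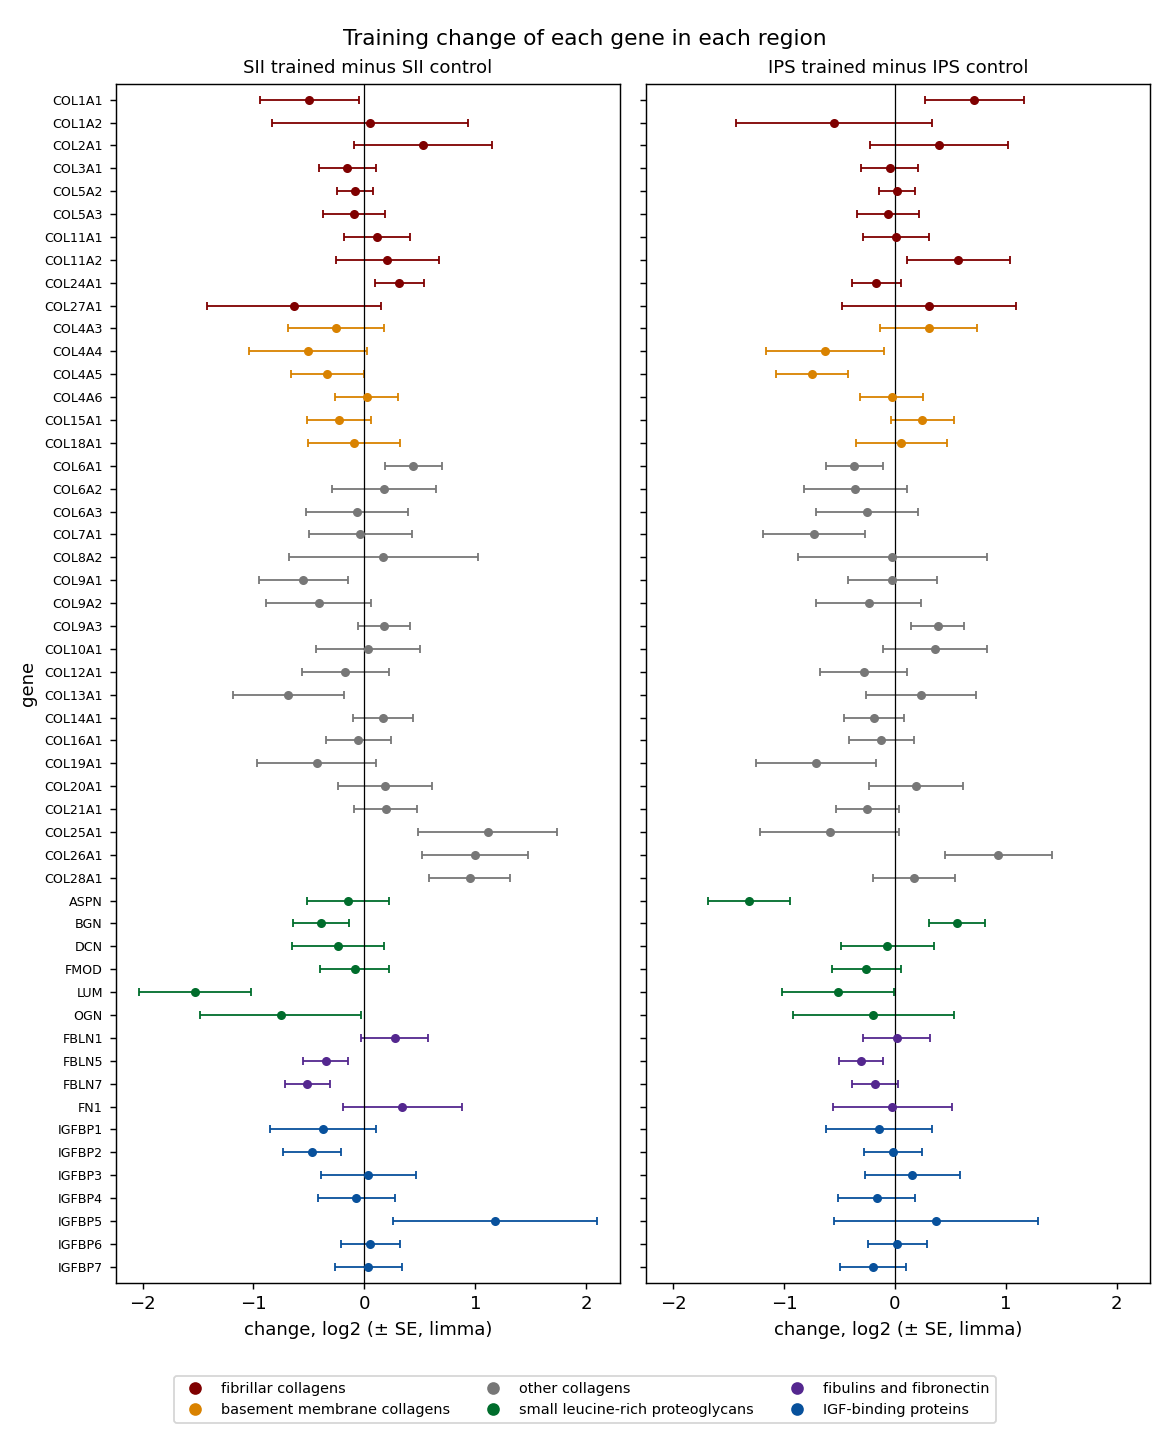
Points are the change of each gene on the log2 scale in SII (left) and IPS (right), with bars for the standard error from limma, coloured by role. LUM in SII at -1.53 and ASPN in IPS at -1.31 lie farthest below 0, and none of the 52 genes passed at a 5% false discovery rate.

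Among the small leucine-rich proteoglycans, LUM in SII and ASPN in IPS had the lowest changes of the 52 members. All 6 were lower in SII trained than in SII control (median -0.32), and 5 of 6 were lower in IPS trained than in IPS control (median -0.23), where the medians over all genes were 0.03 and 0.03. Both medians were smaller than the 0.43 by which the list's median itself varied between arrays of a group (SD). The SII count rested on 1 array: without SII control 2, 4 of 6 were higher in SII trained and the median was 0.10. In IPS, 3 of 6 were higher without IPS control 1 (median -0.09) and 3 of 6 without IPS trained 1 (median -0.04). With quantile normalisation, with array medians set to 0 and with the array shifts undone, all 6 were lower in SII trained, with medians of -0.39, -0.37 and -0.43.

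Lumican (LUM), which spaces collagen fibrils, stood at -0.29, -2.09 and -0.71 in SII trained, against 0.16, 1.11 and 0.34 in SII control. All 3 trained values were below all 3 control values, and SII trained 2 was the lowest. The change was -1.53 ± 0.50, with an unadjusted p of 0.0119 and an adjusted p of 1.00 by limma. In IPS, LUM stood at -0.16, 0.22 and -1.05 in IPS trained, against 0.45, 0.50 and -0.45 in IPS control, and the groups overlapped (-0.52 ± 0.50). The difference between the training changes, IPS minus SII, was 1.02 ± 0.69 with an unadjusted p of 0.172, and 0.52 without SII trained 2. Without SII trained 2 the SII change was -1.01. The 3 LUM probe sets had SII changes of -1.70, -2.04 and -0.91. The probe set with the change of -2.04 was on the detection floor on SII trained 2 and IPS trained 3, where its value is only an upper bound.

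Asporin (ASPN), a collagen-binding proteoglycan that restrains TGF-beta signalling, had its larger change in IPS. Its values were -0.75, -0.22 and -0.79 in IPS trained, against 1.16, 0.20 and 0.88 in IPS control, with no overlap. The change was -1.31 ± 0.37, with an unadjusted p of 0.00498 and an adjusted p of 1.00 by limma. In SII, ASPN stood at 0.28, 0.07 and -0.59 in SII trained, against -0.48, 0.77 and -0.07 in SII control, a change of -0.15 ± 0.37. The training changes differed by -1.16 ± 0.51 (IPS minus SII) with an unadjusted p of 0.0444. ASPN rests on 1 probe set of the low signal class.

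Decorin (DCN), which binds collagen I and holds growth factors in the matrix, did not separate the groups. It stood at 0.07, -0.28 and 0.28 in SII trained, against -0.72, 1.19 and 0.36 in SII control. The control animals lay on both sides of the trained ones, with SII control 2 the highest of all 12 arrays and SII control 1 the lowest. In IPS the values were -0.42, 0.17 and -0.02 in IPS trained, against 0.43, -0.05 and -0.38 in IPS control.

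Osteoglycin (OGN) followed the same arrays with a wider swing. It stood at -0.06, -1.36 and 0.28 in SII trained, against -1.26, 1.96 and 0.49 in SII control. The highest value was again on SII control 2, and the low ones were on SII trained 2 and SII control 1. In IPS its values were -1.08, 0.24 and 0.15 in IPS trained, against 0.46, -0.17 and -0.35 in IPS control, so IPS trained 1 was the low array there. Fibromodulin (FMOD), which guides fibril growth, stood at -0.28, -0.09 and 0.33 in SII trained, against -0.57, 0.70 and 0.09 in SII control. Its values in IPS were -0.42, -0.34 and 0.19 in IPS trained, against 0.25, -0.07 and 0.07 in IPS control. The changes of OGN were -0.76 ± 0.73 in SII and -0.19 ± 0.73 in IPS, and those of FMOD were -0.09 ± 0.31 and -0.26 ± 0.31.

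Biglycan (BGN), a close relative of decorin, was the one proteoglycan with opposite signs in the regions. It stood at -0.03, 0.11 and -0.47 in SII trained, against 0.39, 0.27 and 0.09 in SII control. It stood at 0.04, 0.00 and 0.04 in IPS trained, against -1.07, -0.35 and -0.17 in IPS control. The SII groups overlapped, with SII trained 2 just above SII control 3, and the IPS groups did not overlap. The changes were -0.39 ± 0.25 in SII and 0.56 ± 0.25 in IPS, and they differed by 0.96 ± 0.34 with an unadjusted p of 0.0188 and an adjusted p of 1.00 by limma. The 2 probe sets of BGN went opposite ways in both regions: MmugDNA.12714.1.S1_at had changes of -1.20 in SII and 1.35 in IPS, and MmugDNA.19803.1.S1_s_at had 0.42 in SII and -0.23 in IPS. The first is in the low signal class and the second in the middle class. The IPS change of BGN was 0.29 without IPS control 1 and -0.22 with probe sets of the middle and high classes only.

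**Figure D3:**
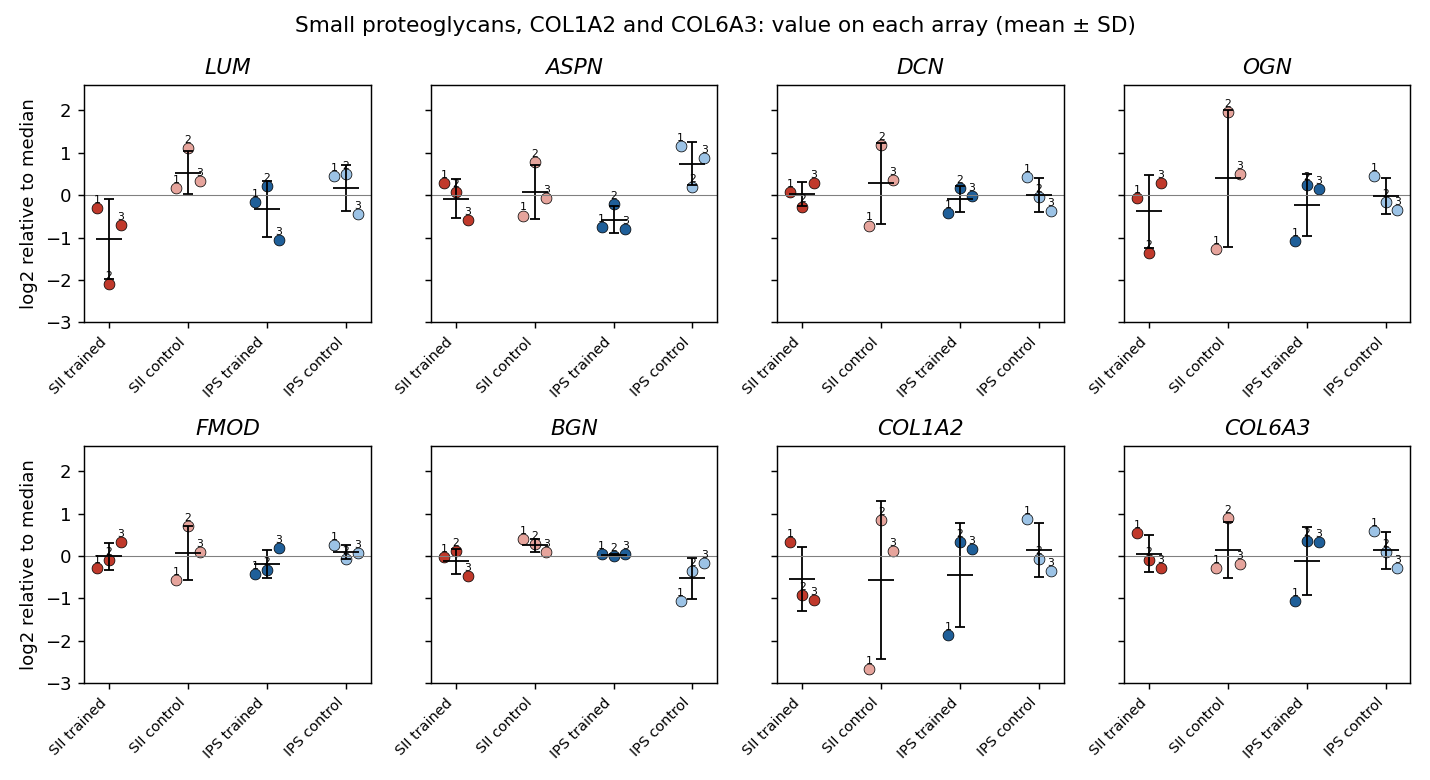
Points are the log2 values of 6 proteoglycans, COL1A2 and COL6A3 on each array, numbered by replicate within SII trained, SII control, IPS trained and IPS control, with bars for the mean ± SD of 3 arrays. SII control 2 is the highest SII array in DCN (1.19), OGN (1.96), LUM (1.11) and FMOD (0.70), and the SD bars of the trained and control groups overlap in these panels except that of LUM in SII.

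Most of the 6 proteoglycans shared the array of their highest value, and their lowest values were spread over several arrays. On SII control 2 all 6 proteoglycans were above 0 and 4 of 6 had their highest value of the 12 arrays there, where 46.3% of all genes were above 0 and 5.79% had their highest value on that array. Genes that mark meninges but are not members showed the same array: 27 of 31 were above 0 there and 10 of 31 had their highest value there, including OMD (2.36), another proteoglycan of this family, BMP6 (1.12), a growth factor, and ANXA2 (0.43), a membrane-binding protein, which were named after their values were seen. The median of these 31 genes was 0.51 on SII control 2, against -0.20 to 0.13 on the other 11 arrays. SII control 1 had a proteoglycan median of -0.53, the lowest, a meninges marker median of -0.20 and a pericyte and smooth muscle median of -0.67. Of the 6 proteoglycans, 2 had their lowest value on SII control 1 and 2 were above 0 there. These 2 were BGN, at its highest value (0.39), and LUM (0.16). IPS trained 1 had medians of -0.42, -0.13 and -0.42 in these lists. SII control 2 also had the lowest detection floor (-0.71) and the lowest actin 3′ minus 5′ value. SII control 1 had a floor at 0.66 and was among the 3 arrays with raised hybridisation controls. The actin value was -1.71 on SII control 3 and -1.54 on SII trained 3, where the proteoglycan medians were 0.22 and -0.09. The floor was at 0.21 and -0.62 on these arrays. The same value for GAPDH on SII control 2, -0.27, was not the lowest. The part of the floor positions and of RNA length in these medians was not tested.

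**Figure D4:**
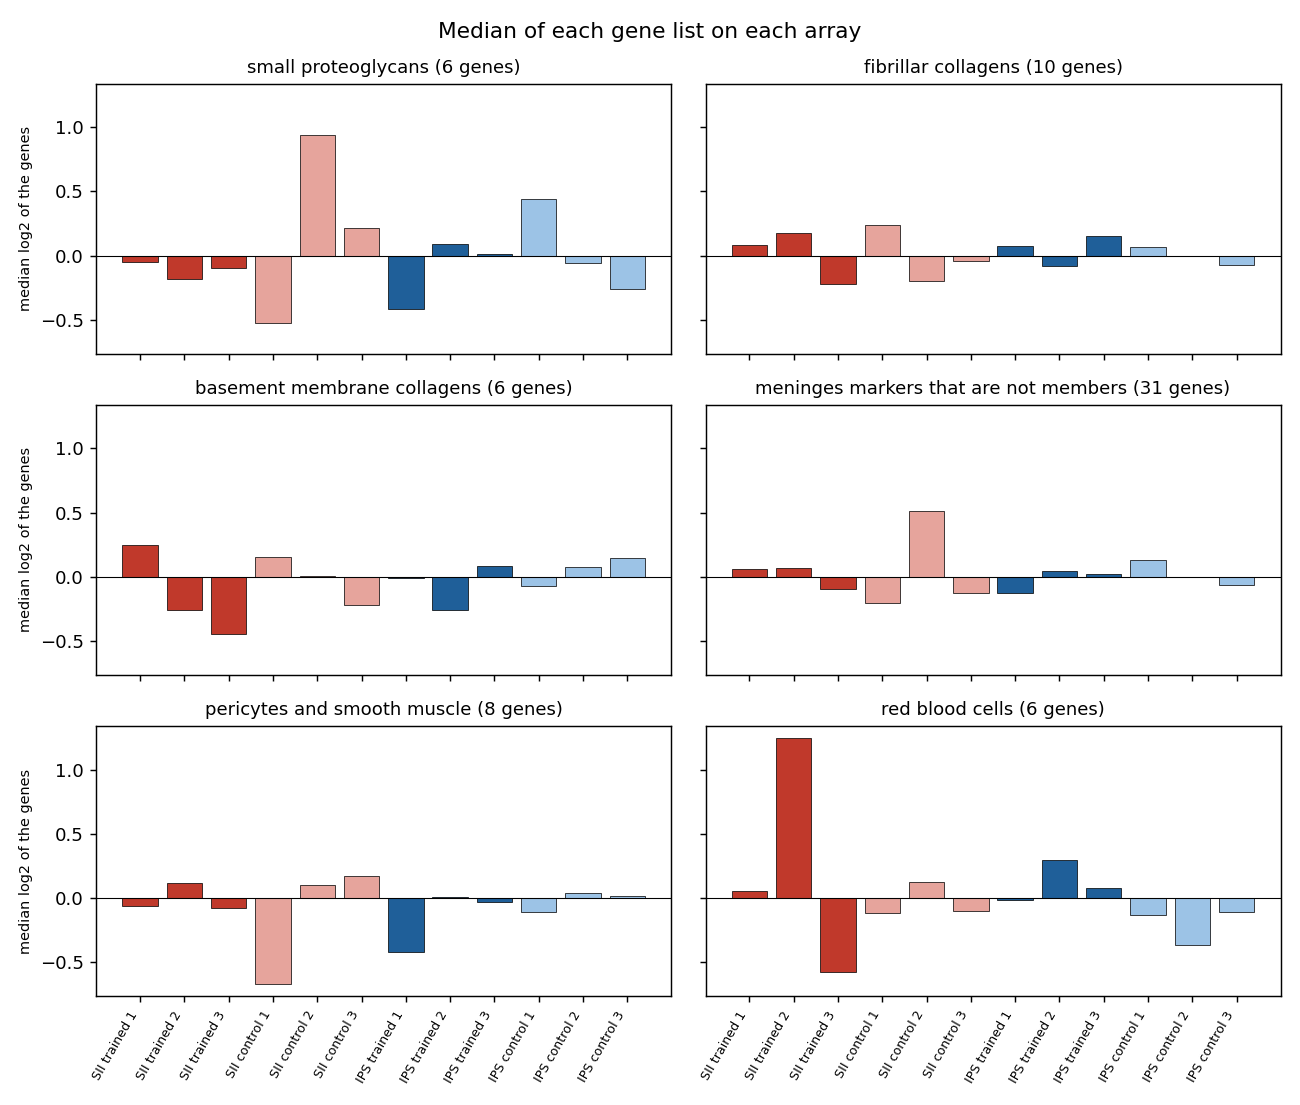
Bars are the median log2 value of each gene list on each array, in the order SII trained, SII control, IPS trained, IPS control. Proteoglycans and the meninges markers that are not members both peak on SII control 2, at 0.94 and 0.51. The list medians of the fibrillar and basement membrane collagens do not, at -0.19 and 0.01. Red blood cell genes, whose probe sets are all in the low class or on the floor, peak at 1.24 on SII trained 2, the array with the highest floor.

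On SII control 2, 4 of 10 fibrillar collagens and 3 of 6 basement membrane collagens were above 0, and over all members the share was 32 of 52. The 4 fibrillar collagens were COL1A1 (1.16), COL1A2 (0.86), COL11A1 (0.33) and COL5A2 (0.02). The lowest were COL27A1 (-1.26) and COL2A1 (-0.77).

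Among the fibrillar collagens, COL1A2, one of the chains of collagen I, moved most with those arrays. It stood at 0.32, -0.93 and -1.04 in SII trained, against -2.67, 0.86 and 0.11 in SII control. It stood at -1.86, 0.33 and 0.17 in IPS trained, against 0.87, -0.07 and -0.36 in IPS control. The lowest values were on SII control 1 and IPS trained 1 and the highest on IPS control 1 and SII control 2, which come from 1 animal. Its changes were 0.05 ± 0.88 in SII and -0.55 ± 0.88 in IPS. Both probe sets of COL1A2 were low on the same arrays, at -1.34 and -3.99 on SII control 1 and at -1.95 and -1.76 on IPS trained 1.

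COL1A1, the partner chain, was above 0 with COL1A2 on SII control 2 and IPS control 1, but also on SII control 1 and IPS trained 1. Its values were -0.48, 0.34 and -0.22 in SII trained, against 0.30, 1.16 and -0.29 in SII control, and 0.88, 1.25 and 0.04 in IPS trained, against 0.69, -0.60 and -0.03 in IPS control. Both of its probe sets were on the detection floor, 1 on 2 arrays and 1 on 5, among them SII control 1. On those arrays its values are only upper bounds. Its change was 0.72 ± 0.45 in IPS, 0.41 without IPS control 2, 0.45 without IPS trained 2 and 1.11 without IPS trained 3. COL3A1, the chain of collagen III of vessels and loose tissue, stood at 0.35, -0.22 and -0.52 in SII trained, against 0.18, -0.17 and 0.04 in SII control. In IPS it stood at 0.08, -0.25 and -0.04 in IPS trained, against 0.22, -0.41 and 0.11 in IPS control, and both changes were within 1 standard error of 0 (-0.15 ± 0.26 and -0.05 ± 0.26). COL24A1, a minor fibrillar collagen, was higher in all 3 SII trained arrays (0.00, 0.26 and -0.19) than in SII control (-0.22, -0.35 and -0.31), by 0.31 ± 0.22, and stood at -0.17 ± 0.22 in IPS. Over the 10 fibrillar collagens, 5 were higher and 5 lower in SII (median -0.02), and 6 higher and 4 lower in IPS (median 0.01).

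The basement membrane collagens read here were COL4A3, COL4A4, COL4A5, COL4A6, COL15A1 and COL18A1, without COL4A1 and COL4A2. Of them, 1 of 6 was higher and 5 were lower in SII (median -0.24), and 3 were higher and 3 lower in IPS (median 0.02). The SII median stayed below 0 under each of the 28 alternatives, between -0.40 and -0.07, but these reuse the same arrays. The list's median itself varied by 0.23 between arrays of a group (SD), about the size of the SII median. COL4A5, a chain of the collagen IV network, had values of -0.47, -0.68 and -0.21 in IPS trained, against -0.06, 0.39 and 0.52 in IPS control. The groups did not overlap, and the change was -0.75 ± 0.33 with an unadjusted p of 0.0451 and an adjusted p of 1.00 by limma. This rested on 1 of 2 probe sets, which had a change of -1.49 and was on the floor on IPS trained 2, SII trained 2 and SII trained 3, and the other probe set had a change of 0.01. COL4A4, its network partner, stood at -0.24, -0.21 and 0.05 in IPS trained, against 0.16, 0.31 and 0.85 in IPS control. Its lowest value, -2.36, was on SII trained 2. COL18A1, the source of endostatin, had values of -0.08, 0.94 and -1.04 in SII trained, against 0.51, -0.29 and -0.13 in SII control, and lay between -0.09 and 0.19 on the 6 IPS arrays. Laminins, nidogens and basement membrane proteoglycans outside the set gave 6 of 13 higher in SII (median -0.01) and 4 of 13 higher in IPS (median -0.18), and 0 passed. LAMA4, a laminin chain of vessels, had the smallest p of these in SII, with a change of -0.54 ± 0.25.

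Collagen VI, which forms beaded microfibrils around cells, was read through its 3 chains. COL6A3 stood at 0.54, -0.10 and -0.29 in SII trained, against -0.28, 0.90 and -0.18 in SII control, and at -1.06, 0.35 and 0.32 in IPS trained, against 0.59, 0.10 and -0.29 in IPS control. COL6A2 stood at 0.17, -0.30 and -0.15 in SII trained, against -0.84, -0.07 and 0.13 in SII control, and at -1.49, 0.22 and 0.34 in IPS trained, against 0.28, -0.40 and 0.27 in IPS control. COL6A1 stood at 0.29, 0.67 and 0.51 in SII trained, against 0.28, 0.31 and -0.47 in SII control, and at -0.48, -0.24 and 0.23 in IPS trained, against 0.11, 0.12 and 0.37 in IPS control. IPS trained 1 was the lowest array for all 3 chains. The training changes of COL6A1 were 0.44 ± 0.26 in SII and -0.36 ± 0.26 in IPS, and they differed by -0.81 ± 0.36 with an unadjusted p of 0.0466 and an adjusted p of 1.00 by limma. The SII change was 0.19 without SII control 3. Of its 3 probe sets, 1 was on the floor on 5 arrays.

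Other collagens had larger changes with wide errors. COL28A1, a collagen of peripheral nerve, stood at 0.71, 0.76 and 0.77 in SII trained, against 0.37, -0.25 and -0.80 in SII control, with no overlap. Its change was 0.95 ± 0.37, with an unadjusted p of 0.026 and an adjusted p of 1.00 by limma, and in IPS it was 0.17 ± 0.37. COL26A1 stood at -0.01, 1.41 and 1.87 in SII trained, against -0.31, 0.55 and 0.01 in SII control, and at 0.62, 0.14 and -0.34 in IPS trained, against -1.16, -0.84 and -0.31 in IPS control. The groups overlapped in both regions, and its average training change of 0.96 ± 0.35 had an unadjusted p of 0.0192. COL25A1, a transmembrane collagen of neurons, had changes of 1.11 ± 0.63 in SII and -0.59 ± 0.63 in IPS, a difference of -1.69 ± 0.86. Its SII change was 0.63 without SII trained 1, and the difference was -1.10 without IPS trained 1. COL7A1, which builds the anchoring fibrils of skin, stood at -0.83, -0.31 and -0.02 in IPS trained, against 0.56, 0.16 and 0.36 in IPS control, a change of -0.73 ± 0.46. COL9A3, a cartilage collagen, had 0.39 ± 0.24 in IPS, and COL13A1, a transmembrane collagen of the neuromuscular junction, had a difference of 0.92 ± 0.68 between the training changes, which was 0.53 without SII trained 2. COL24A1 had a difference of -0.48 ± 0.30 (-0.28 without IPS trained 2) and COL1A1 one of 1.21 ± 0.61. Over the 19 other collagens, 11 were higher and 8 lower in SII (median 0.17), and 6 higher and 13 lower in IPS (median -0.19). The difference between the training changes, IPS minus SII, was above 0 in 24 members and below 0 in 28 (median -0.06), where it was above 0 in 49.5% of all genes. Among these differences, 1 member was higher (BGN) and 2 lower (ASPN and COL6A1) at an unadjusted p under 0.05, where the background was 1.52% and 1.76%.

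Fibulins and fibronectin bind the fibres and basement membrane to cells. FBLN7 stood at -0.25, -0.07 and -0.40 in SII trained, against 0.58, 0.15 and 0.10 in SII control, with no overlap, and its change was -0.51 ± 0.21 with an unadjusted p of 0.0305 and an adjusted p of 1.00 by limma. In IPS its change was -0.18 ± 0.21. FBLN1 stood at 0.27, 0.39 and -0.03 in SII trained, against -0.51, 0.63 and -0.29 in SII control. Its highest and lowest values were on SII control 2 and SII control 1, the arrays at the ends of the decorin order. In IPS, FBLN1 stood at 0.03, 0.00 and 0.08 in IPS trained, against 0.52, -0.15 and -0.25 in IPS control. Fibronectin (FN1) stood at 0.45, 0.19 and -1.57 in SII trained, against -1.31, 0.38 and -1.03 in SII control, and at 0.01, 0.14 and 0.24 in IPS trained, against 0.09, 0.05 and 0.42 in IPS control. Its 3 low arrays were those on which 1 of its 2 probe sets was on the floor, and the other probe set, in the high class, was at -0.23, -0.99 and 0.00 there. The average training change was above 0 in 21 members and below 0 in 31 (median -0.06), where it was above 0 in 56.1% of all genes. It gave 1 higher member (COL26A1) and 5 lower (LUM, ASPN, FBLN5, FBLN7 and COL4A5) at an unadjusted p under 0.05, where the background was 1.88% and 1.15%. These average changes were -1.02 ± 0.37 for LUM, -0.73 ± 0.27 for ASPN, -0.35 ± 0.15 for FBLN7 and -0.54 ± 0.24 for COL4A5, which was 0.11 without its floor probe set. COL28A1 averaged 0.56 ± 0.27, IGFBP5 0.78 ± 0.67 and COL9A3 0.28 ± 0.17. The average of IGFBP5 was 0.17 without IPS trained 2 and 0.51 without SII trained 2.

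The IGF-binding proteins, which carry insulin-like growth factors, had 4 of 7 higher in SII (median 0.04) and 3 of 7 higher in IPS (median -0.02). IGFBP2, abundant in meninges and choroid plexus, stood at -0.41, 0.15 and -0.62 in SII trained, against -0.10, 0.36 and 0.29 in SII control, a change of -0.47 ± 0.26. In IPS it stood at 0.06, 0.31 and -0.47 in IPS trained, against -0.06, -0.07 and 0.13 in IPS control, a change of -0.02 ± 0.26. IGFBP5 swung most, at 0.11, 1.90 and 0.63 in SII trained, against 1.10, -0.92 and -0.89 in SII control, and at -1.06, 2.40 and -1.06 in IPS trained, against -1.03, 0.27 and -0.11 in IPS control. The animals of each IPS and SII group spanned more than the groups differed (1.18 ± 0.92 in SII and 0.37 ± 0.92 in IPS). IGFBP7, a vessel protein with 6 probe sets, stood at -0.14, -0.33 and 0.32 in SII trained, against -0.77, 0.38 and 0.13 in SII control, and between -0.43 and 0.10 on the 6 IPS arrays.

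The regions themselves were compared as IPS minus SII over both treatments. All IPS arrays came from males, while SII trained 2 and SII control 1 came from females. Of the 52 genes, 25 were higher and 27 lower in IPS (median -0.02), where 46.8% of all genes were higher. With the array shifts undone the median was 0.23, and that of all genes 0.22. As deposited, 2 were lower at an unadjusted p under 0.05, where the background was 6.38% lower and 4.28% higher. These were COL26A1, at -0.91 ± 0.33, and IGFBP3, at -0.83 ± 0.29, with adjusted p-values of 0.406 and 0.393 by limma. IGFBP3 stood at -0.96, -0.05 and -0.39 in IPS trained and 0.10, -0.78 and -1.26 in IPS control, against 0.46, 0.37 and 0.05 in SII trained and 1.07, -0.36 and 0.15 in SII control. COL8A2, a short-chain collagen of basement membranes and vessels, had the largest difference, -1.18 ± 0.58, with values down to -2.73 on IPS control 2 and -2.24 on IPS trained 1. COL4A4 (0.70 ± 0.37), FN1 (0.63 ± 0.37), COL13A1 (0.59 ± 0.34) and COL21A1 (0.34 ± 0.19) were higher in IPS, and COL28A1 (-0.47 ± 0.25) was lower, none past the threshold. Single arrays carried much of these differences. COL4A4 had 0.34 without SII trained 2, FN1 had 0.24 and COL21A1 0.18 without SII trained 3, and COL21A1 had 0.22 without IPS trained 3. COL13A1 had 0.37 without SII control 2 and 0.38 without SII trained 2, COL8A2 had -0.71 without IPS control 2, and COL28A1 had -0.31 without IPS control 1. Over all genes, 3 passed in this comparison (0.0212%), and none was a member.

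Within the 4 animals that gave both regions, the proteoglycans were lower in IPS for 3 genes of 6 in all 4 animals, where 8.32% of all genes were. DCN was lower in IPS by 0.48 ± 0.20 (SD, n = 4 animals) on average, FMOD by 0.22 ± 0.15 and OGN by 0.83 ± 0.58. In the animal of IPS control 1 and SII control 2, OGN stood at 0.46 in IPS and 1.96 in SII, and DCN at 0.43 and 1.19. The proteoglycan median of this animal was 0.44 in IPS and 0.94 in SII, the highest of the IPS and of the SII arrays. COL8A2 was also lower in IPS in 4 of 4 animals (mean difference -1.47 ± 1.09, SD), and COL13A1, COL24A1 and COL18A1 were higher in 4 of 4, where 9.04% of all genes were. Genes of other lists were lower in 4 of 4 animals too, with 5 of 9 macrophage genes (55.6%). So were 2 of 8 pericyte and smooth muscle genes and 2 of 8 cortical neuron genes (25% each). The same held for 3 of 13 laminins and other basement membrane genes (23.1%) and 3 of 15 endothelial genes (20.0%). It held for 5 of 31 meninges markers outside the set (16.1%) and 1 of 8 choroid plexus and ependyma genes (12.5%). Of the 31 meninges markers, 3 were higher in IPS in 4 of 4 (9.68%). Over the 12 arrays, macrophage genes had a median of -0.35 in IPS minus SII, with 8 of 9 lower, 3 at an unadjusted p under 0.05 and 0 past the threshold of limma, the proteoglycans had a median of -0.13 with 4 of 6 lower, and the meninges markers had -0.09 with 18 of 31 lower. With the array shifts undone, the medians of plain IPS minus SII means were -0.17 for macrophage genes, 0.08 for the proteoglycans and 0.11 for the meninges markers, against 0.16 for all genes. The part of macrophage content in the proteoglycan values was not tested. With array medians set to 0 these 7 genes gave the same counts of animals. With the array shifts undone, all genes had a median of -0.21 in these pairs. DCN, OGN and COL8A2 were still lower in IPS in 4 of 4, and FMOD, COL13A1, COL24A1 and COL18A1 were not on 1 side in all 4. By list, 2 of 6 proteoglycans and 3 of 9 macrophage genes were then lower in 4 of 4. So were 2 of 13 laminins and other basement membrane genes, 1 of 15 endothelial genes and 2 of 31 meninges markers. Lower too were 1 of 8 cortical neuron genes, 2 of 8 choroid plexus and ependyma genes and 0 of 8 pericyte and smooth muscle genes. Over all genes the share was 7.48%.

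Where a gene had several probe sets, these often disagreed. In SII the training change had 1 sign over all probe sets in 12 of 27 such genes, and in IPS in 11 of 27. The same share over all genes was not computed, so this is not shown to be particular to the members. Of the 5 DCN probe sets, 4 were high on SII control 2 (1.00, 1.58, 2.57 and 1.60) and low on SII control 1 (-0.70, -0.64, -1.45 and -1.06). The fifth, MmugDNA.34727.1.S1_at, was at -0.81 and 0.26 on these arrays. The 2 OGN probe sets were both high on SII control 2, at 2.47 and 1.44, and stood at -0.20 and -2.32 on SII control 1.

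**Figure D5:**
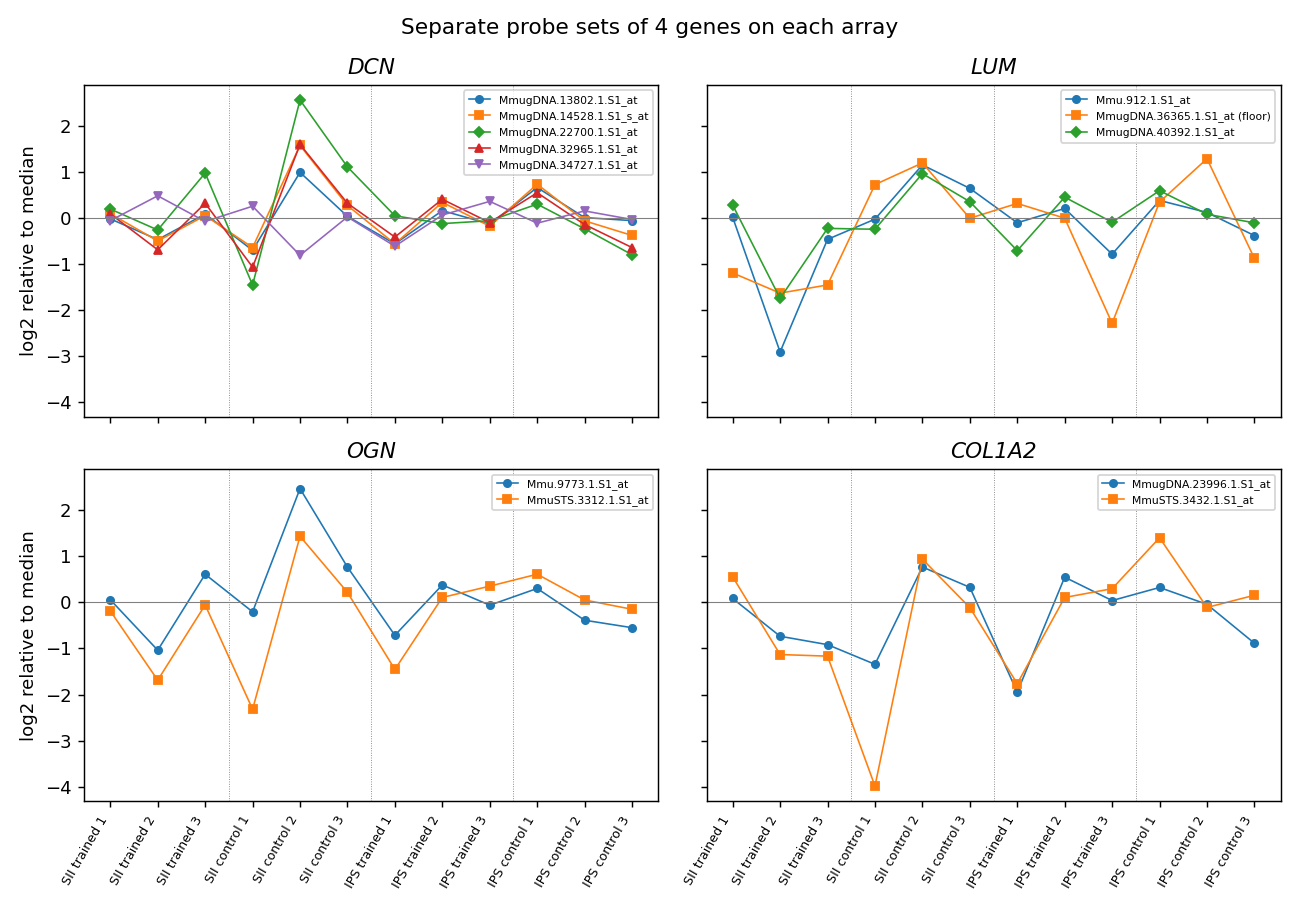
Lines are single probe sets of DCN, LUM, OGN and COL1A2 over the 12 arrays, on the log2 scale relative to each probe set's median. Of the 5 DCN lines, 4 peak on SII control 2 and 1 dips there to -0.81, and both COL1A2 lines dip on SII control 1 and IPS trained 1.

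Genes of the pathway outside the set did not pass the test either. Of the enzymes and chaperones that fold, hydroxylate, trim and cross-link collagen, 26 were measured: 17 were higher in SII trained (median 0.07) and 14 in IPS trained (median 0.05), with P4HA3, a collagen prolyl hydroxylase subunit, at 0.51 ± 0.36 in SII and LOXL1, an elastin cross-linking enzyme, at -0.77 ± 0.55 in IPS. The 31 meninges markers that are not members had 16 higher in SII trained (median 0.01) and 15 in IPS trained (median -0.02). SFRP1, a secreted Wnt inhibitor, was the one with the smallest p in SII (-1.46 ± 0.69), and DPEP1 in IPS (0.62 ± 0.21, unadjusted p = 0.013, adjusted p = 1.00 by limma). Vessel genes had medians of -0.02 in SII and 0.07 in IPS for 15 endothelial genes, and of 0.06 and -0.19 for 8 pericyte and smooth muscle genes. Choroid plexus and ependyma genes were higher in SII trained in 8 of 8 (median 0.39) and in IPS trained in 4 of 8 (median 0.09), and 0 passed. Of these 8, 4 had their highest value on SII trained 1 and 3 on SII trained 2, and 3 were above 0 on SII trained 3. Of their 11 probe sets, 6 were in the low class and 2 on the floor. Red blood cell genes had medians of 0.23 and 0.35 over 6 genes, macrophage genes 0.04 and 0.02 over 9, astrocyte genes -0.00 and 0.02 over 8, oligodendrocyte genes 0.09 and 0.03 over 3, and cortical neuron genes -0.11 and 0.13 over 8.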

How the data were processed

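Gene expression was read in 12 samples of left-hemisphere cortex on Affymetrix rhesus macaque arrays, from biotinylated cRNA per the labels' protocols. The deposited log2 values were made by the authors with MAS5, per the submitters' processing notes, which give no version; the base of the logarithm was inferred from their range, and each probe set has a median of 0 over the arrays. The scaling between arrays is not stated in the labels. A sequencing depth does not apply, and the number of arrays limits the precision.

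The 99 control probe sets were left out. Of the other 52766, 24956 have 1 gene symbol in the platform annotation, 361 several and 27449 none, and a gene is the mean of its single-symbol probe sets. limma 3.58.1 (R 4.3.3, statmod 1.5.0) was fitted to 4 group means with a correlation between arrays of 1 animal, with Benjamini-Hochberg adjustment over 52766 probe sets or 14132 genes and a threshold of 0.05. All p-values are two-sided. The fit was tested on simulated data without the correlation between arrays of 1 animal, and only for SII trained minus SII control. The detection floor of each array is a value shared by many probe sets, and signal classes were read back from the spacing of the stored numbers. The array shift is the position of that floor.

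Animals were taken from the labels. Nothing states that arrays differ only by animal, so p-values measure the spread between these arrays. Replicate numbers mark a shared animal in 2 pairs only, SII and IPS trained 1 and SII and IPS trained 3, and never between trained and control arrays. The deviations from the group means correlated at 0.06 and -0.09 in those pairs and between -0.20 and 0.06 in the other same-numbered pairs. Named members are the 4 with the smallest p in each direction of each comparison, plus 20 symbols listed for description, and other lists give the genes with the smallest p. The members and lists were chosen with earlier results of these data known. Alternatives covered scaling, array weights, the animal term, a replicate block, sex, left-out arrays, floor and low-signal probe sets, the median over probe sets and a plain 2-sample test. Undoing the array shifts was added after seeing the data.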

Additional observations from a re-analysis of the deposited data

Results flagged for a closer look

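A biglycan (BGN) probe set, MmugDNA.12714.1.S1_at, had training changes of opposite sign in the regions, with no overlap between trained and control arrays in either. It stood at 0.25, 0.42 and -0.02 in IPS trained, against -2.16, -0.78 and -0.46 in IPS control, a change of 1.35. It stood at -0.53, 0.02 and -0.80 in SII trained, against 1.32, 0.56 and 0.37 in SII control, a change of -1.20. The difference, IPS minus SII, was 2.55 ± 0.62 (SE), with an unadjusted p of 0.00198 and an adjusted p of 0.964 by limma. The probe set is in the low signal class, and the other BGN probe set, in the middle class, had 0.42 in SII and -0.23 in IPS.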

How the results depend on the processing

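None of the 93 probe sets passed a 5% false discovery rate in any of the 5 comparisons under any alternative run, leaving out each array included. The median change of the 52 genes depended on single arrays: leaving out 1 array gave -0.11 to 0.13 in SII (0.13 without SII trained 3, against -0.07 with all) and -0.20 to 0.11 for the difference between the training changes (-0.20 without SII trained 3 and 0.11 without IPS trained 1). In males only, this difference was 0.10. With the array shifts undone, an alternative chosen after seeing the data, the members' medians were -0.35 in IPS, -0.22 for the difference, -0.23 for the average and 0.23 for IPS minus SII. All genes then had -0.22, -0.16, -0.14 and 0.22, and the members relative to them -0.14, -0.06, -0.09 and 0.01. The split of members was then 13 higher and 39 lower in IPS.

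Single genes turned in sign as follows. COL13A1 had a difference of -0.15 in the 4 animals with both regions. Without floor probe sets COL4A5 had 0.018 in IPS and 0.11 on average. With middle and high signal only it had 0.027 and 0.11, and BGN had -0.22 in IPS and -0.62 as the difference. With the replicate block, 0 probe sets passed, and the members' medians were -0.07, -0.07, -0.06, -0.06 and -0.02 in the 5 comparisons. At an unadjusted p under 0.05, the number of member probe sets ranged over the alternatives from 2 to 7 in SII, 0 to 5 in IPS, 1 to 9 for the difference, 2 to 8 for the average and 0 to 7 for the regions. The causes of these movements were not tested. Low signal and floor values limit 35 of the 93 probe sets, and 3 arrays a group limit every comparison. Over all genes, 6724 of 24956 probe sets were in the low class and 2786 on the floor, so this limit is not particular to the members.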
